A study of Mus musculus with 6 samples.

Results

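Mouse CCL21 and CCL19 are the ligands of the chemokine receptor CCR7. The probes of their genes were read in brains of male hSRY-ON mice, with an active human SRY transgene, and of hSRY-OFF controls. The members were chosen by gene symbol, as every probe named Ccl21a, Ccl21b, Ccl21c, LOC100041504, Ccl19 or Ccr7. Of these 6 symbols 5 had a probe, with 1 probe each, so that 5 of the 18138 gene symbols and 5 of the 25697 probes belonged to the set, and no probe was named Ccl21b. The set was drawn up because the Ccl21c and LOC100041504 probes were known to be among the lowest in hSRY-ON relative to hSRY-OFF on these same arrays. The differences between genotypes in the members are therefore given as a description, with no p-value. Calls of members in the fit over all probes are named and counted, and nothing is read from them.

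Total RNA from 6 brains taken at postnatal day 6 had been hybridized to Illumina MouseRef-8 v2.0 bead arrays, 3 from hSRY-OFF and 3 from hSRY-ON males, of the FVB strain per the labels (FVB/N per the study's methods). The Signalox-hSRY transgene is a single insertion at the H11 locus of chromosome 11 driven by the ubiquitous CAG promoter. The methods define hSRY-OFF mice as carrying it without recombination, with DsRed2 expressed and human SRY silent. Elsewhere, however, the study calls its array controls hSRY-OFF and names littermates without the transgene as controls, so whether these 3 mice carried the unrecombined transgene is not settled by the sources used here, and the contrast may include its presence. In hSRY-ON mice, Cre recombinase carried over in the egg of a Ddx4-Cre mother had removed DsRed2, so that FLAG-tagged human SRY and EGFP were expressed from the earliest stage, and the animals chosen for the arrays had not themselves inherited Ddx4-Cre. The line rests on 1 insertion, and hSRY-ON pups grow poorly and die young, so the transgene and the state of the animals cannot be told apart. Each array had a median signal between 200.2 and 219.8, and 13816 to 14377 probes were detected on an array at a detection p-value under 0.05. Calls over all probes rested on most arrays, as 308 probes were called with all 6, at most 1 when any single array other than hSRY-ON replicate 3 was left out, and 417 without that array.

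CCR7 guides dendritic cells and naive T cells into lymph nodes along fields of CCL21 and CCL19. CCL21 is made by stromal cells of lymphoid organs, by the thymic medulla and by lymphatic vessels, and it binds strongly to matrix through a basic tail, whereas CCL19 is more soluble. In the brain, both ligands have been described at vessels and in the meninges during inflammation, and CCL21 in injured neurons. The mouse carries several near-identical copies of Ccl21, and inbred strains differ in how many.

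In the RefSeq table of assembly GRCm38.p6, 6 protein-coding genes on chromosome 4 share the CCL21 synonym 6Ckine, namely Ccl21a, Ccl21b, Ccl21c, Ccl21d, Gm13304 and Gm10591. LOC100041504 (gene 100041504) is a further protein-coding gene on the same chromosome, as is Ccl19 (gene 24047), while Ccr7 (gene 12775) lies on chromosome 11. Promoter sequences from RefSeq were present for 3 of the 6 member symbols, Ccl21a, Ccl21b and Ccl19. The 250 bases upstream of the start of Ccl21a and of the copies Ccl21d and Gm13304 are shown to make visible how little sequence separates these copies. Each is written 5′ to 3′ along its gene's strand (Ccl21a chr4:42773992-42774241, minus strand; Ccl21d chr4:41903363-41903612, plus strand; Gm13304 chr4:42114537-42114786, plus strand; build GRCm38.p6), and capitals mark the 2 positions at which the copies differ.
Ccl21a: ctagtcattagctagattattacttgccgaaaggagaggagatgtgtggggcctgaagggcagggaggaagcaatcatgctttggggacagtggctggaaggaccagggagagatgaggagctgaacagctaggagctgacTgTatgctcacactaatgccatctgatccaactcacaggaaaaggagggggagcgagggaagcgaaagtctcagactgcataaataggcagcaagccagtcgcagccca
Ccl21d: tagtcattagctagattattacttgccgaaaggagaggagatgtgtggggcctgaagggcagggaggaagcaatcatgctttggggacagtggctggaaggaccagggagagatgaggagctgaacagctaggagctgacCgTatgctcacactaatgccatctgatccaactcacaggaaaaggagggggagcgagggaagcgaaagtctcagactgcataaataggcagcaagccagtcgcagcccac
Gm13304: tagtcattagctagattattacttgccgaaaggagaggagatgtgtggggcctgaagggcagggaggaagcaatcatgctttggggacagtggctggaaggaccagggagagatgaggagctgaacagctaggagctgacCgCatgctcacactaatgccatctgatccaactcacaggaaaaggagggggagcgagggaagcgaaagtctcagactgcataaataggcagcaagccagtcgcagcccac
Over 249 aligned bases, Ccl21a differed from Ccl21d at 1 position (99.6% identity) and from Gm13304 at 2 positions (99.2%). Gm10591 was identical to Gm13304 over all 250 bases. The Ccl21b window is not shown or aligned, as it shared no run of over 10 bases with that of Ccl21a, where each of the other 3 copies shared a run of 140, so the statement on likeness does not cover Ccl21b. The SRY and SOX core AACAAT and the TATA box TATAAA, searched on both strands, had 0 matches in these 4 windows, and they occurred in 9.42% and 12.4% of all 32851 windows of this length in the table. That says only that these letters are not in these windows. These windows lie outside the transcripts, and the sequences of the probes themselves were not used here. A signal named after 1 copy is therefore uncertain as to the copy it reads.

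The probes of Ccl21a, Ccl21c and LOC100041504, called the Ccl21 probes here, were bright in hSRY-OFF and 0.447 to 0.546 times as bright in hSRY-ON, with no overlap between the genotypes. The probe of Ccl21a (ILMN_1213286), the copy that encodes the serine form of the chemokine found in lymphoid stroma, read 985, 1031 and 983 on hSRY-OFF replicates 1 to 3 and 318, 515 and 509 on hSRY-ON replicates 1 to 3 (bead signal intensity, linear scale). Its lowest hSRY-OFF array was 1.91 times as bright as its highest hSRY-ON array, and hSRY-ON replicate 1 stood below the other arrays of its genotype. After background correction and quantile normalization, the Ccl21a level (log2 signal, mean ± SD, n = 3 per genotype here and below) was 9.69 ± 0.16 in hSRY-OFF and 8.17 ± 0.72 in hSRY-ON, a log2 difference of -1.52 (SE 0.33), which is 2.86-fold lower.

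The probe of Ccl21c (ILMN_2969845), a copy for the leucine form associated with lymphatic vessels, read 595, 619 and 539 in hSRY-OFF and 273, 369 and 315 in hSRY-ON. The 2 genotypes were again apart, and the same hSRY-ON array was the lowest. The normalized level of Ccl21c was 8.72 ± 0.16 in hSRY-OFF and 7.40 ± 0.48 in hSRY-ON, a log2 difference of -1.31 (SE 0.23), or 2.48-fold lower.

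The probe of LOC100041504 (ILMN_2602139), a predicted gene set beside the Ccl21 copies, read 599, 639 and 629 in hSRY-OFF and 270, 333 and 367 in hSRY-ON. Its normalized level was 8.84 ± 0.21 in hSRY-OFF and 7.43 ± 0.51 in hSRY-ON, a log2 difference of -1.41 (SE 0.25), or 2.65-fold lower. Like the others it was lowest on hSRY-ON replicate 1, and its hSRY-OFF arrays lay within 0.36 of each other on the log2 scale.

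**Figure D1:**
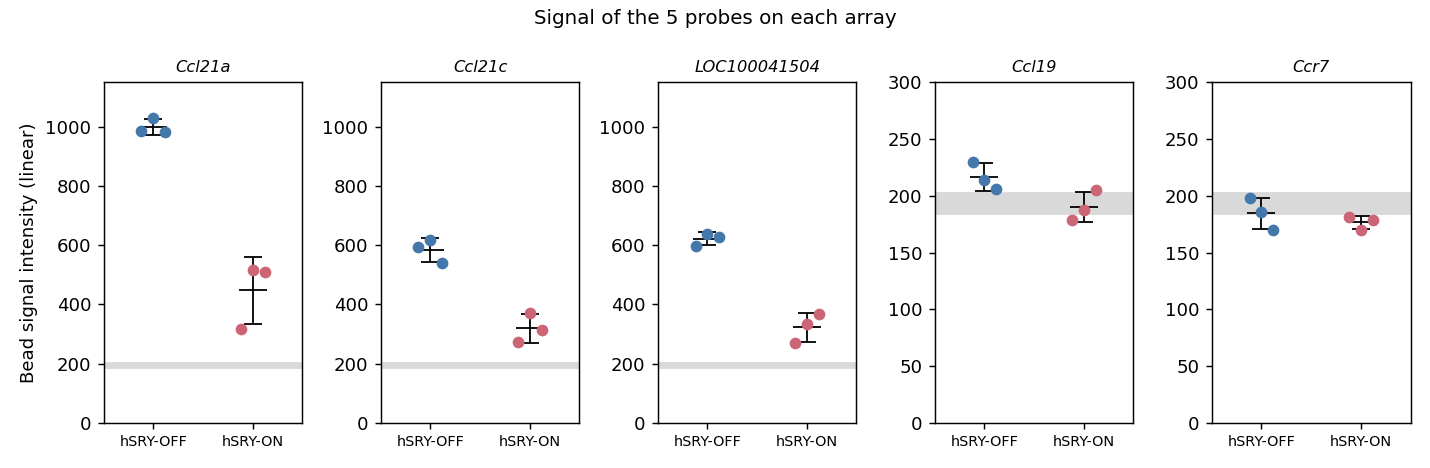
Bead signal intensity (linear scale) of each of the 5 probes on the 3 hSRY-OFF (blue) and 3 hSRY-ON (red) arrays, with the mean and SD in black; the grey band spans the lowest detected signal of the 6 arrays, 184 to 203, and the scale is wider for the first 3 probes. The Ccl21a, Ccl21c and LOC100041504 probes lie above the band on all arrays and are lower in hSRY-ON, while Ccl19 and Ccr7 lie at or near the band.

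Ccl19, the other CCR7 ligand, was close to the limit of detection. Its probe (ILMN_2836386) read 230, 214 and 206 in hSRY-OFF and 179, 187 and 205 in hSRY-ON, where the lowest detected signal of an array lay between 184 and 203. It was detected on 5 of 6 arrays, all except hSRY-ON replicate 1. The normalized Ccl19 level was 5.98 ± 0.09 in hSRY-OFF and 5.43 ± 0.43 in hSRY-ON, a log2 difference of -0.55 (SE 0.20), with the highest hSRY-ON array at 5.84 just under the lowest hSRY-OFF array at 5.88. Without background correction the Ccl19 difference was -0.15, with normexp fitted on the signals and an offset of 50, which changes both the fit and the offset, it was -0.28, and without hSRY-ON replicate 1 it was -0.33, so its size depended on how the background was taken off and on 1 array. The annotation also lists Ccl19 pseudogenes on chromosome 4 and a further gene, Gm2023, with Ccl19 among its synonyms, so that the probe could also read more than 1 copy.

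Ccr7, the receptor of both ligands, was not detected on any array. Its probe (ILMN_2821118) read 198, 186 and 170 in hSRY-OFF and 181, 170 and 179 in hSRY-ON, with detection p-values from 0.0752 to 0.274. No fold change is given for it, and a low level of Ccr7 transcript in a few cells of the brain would not have been detectable at this background.

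Of the 4 member probes that passed the detection filter, 4 did not overlap between genotypes and were lower in hSRY-ON, where 14.2% of all 14215 tested probes were lower without overlap. Ccl21c and LOC100041504 were called lower in the fit over all probes (limma, Benjamini-Hochberg adjusted p under 0.05), 2 of 4 tested members, where 1.32% of all tested probes were called lower and 0.844% higher. Ccl21a had the largest difference of the set, with the largest SE, and was not called. Because the members were picked with this contrast known, nothing is read from these counts. When single arrays were left out, 0 members were called, except that LOC100041504 was called without hSRY-ON replicate 3. Among all tested probes, Ccl21a, LOC100041504 and Ccl21c ranked 4, 5 and 7 from the lowest log2 difference, and 28 probes had a difference below -1. The median difference over the 3 Ccl21 probes was -1.41, and that over all tested probes was 0.0048. In a bulk sample, fewer cells that make a transcript and less of it per cell cannot be told apart.

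The Ccl21 probes also varied alike among arrays. Which copy each reads is uncertain, so they may read the same copy and their likeness cannot be taken as agreement between genes. Across the 6 arrays, Pearson's r of the normalized log2 signals was 0.974 between Ccl21a and Ccl21c, 0.988 between Ccl21a and LOC100041504 and 0.961 between Ccl21c and LOC100041504, and Spearman's rho for these pairs was 1, 0.886 and 0.886. These values are a description over 6 arrays that fall into 2 separate genotypes, so they largely restate the difference between genotypes. The deviations from the genotype means, which leave that difference out, had r of 0.890, 0.960 and 0.768 for the same pairs. Ccl19 followed Ccl21a and LOC100041504 with r of 0.846 and 0.845 in these deviations and Ccl21c with r of 0.604. On hSRY-ON replicate 1 the deviations were -0.83 for Ccl21a, -0.50 for Ccl21c, -0.57 for LOC100041504 and -0.45 for Ccl19, so that all 4 probes were lowest on this brain. Ccl19 was not detected on that array (detection p-value 0.195), so its r values include a reading not above background.

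The spread among the hSRY-ON arrays rested largely on replicate 1 for Ccl21a and LOC100041504. On the log2 scale, the SD among hSRY-ON arrays was 4.61 times that among hSRY-OFF arrays for Ccl21a, 3.05 times for Ccl21c and 2.45 times for LOC100041504. Without hSRY-ON replicate 1, on the same normalized values and so over only 2 hSRY-ON arrays, these ratios were 0.121, 1.92 and 0.733, so that the order of the genotypes turned for Ccl21a and LOC100041504. On the bead signal scale with all arrays they were 4.13, 1.18 and 2.33, so that for Ccl21c the ratio also depended on the scale. Over all tested probes, the SD was larger in hSRY-ON for 59.1%. In the fit without hSRY-ON replicate 1, the log2 difference between genotypes was -1.11 for Ccl21a, -1.06 for Ccl21c and -1.12 for LOC100041504.

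**Figure D2:**
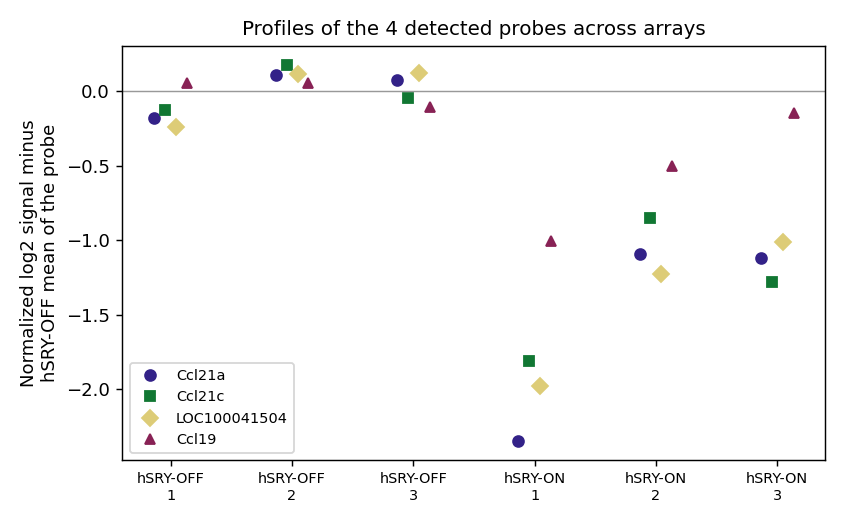
Normalized log2 signal of the Ccl21a, Ccl21c, LOC100041504 and Ccl19 probes on each array, as the difference from that probe's hSRY-OFF mean. Points of all 4 probes lie from -0.24 to 0.18 on the hSRY-OFF arrays and are lowest on hSRY-ON replicate 1, where Ccl21a falls furthest.

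The probes whose profile was most like the mean of the 3 Ccl21 probes over the 6 arrays were those of Slc13a3, a sodium-coupled dicarboxylate transporter (r = 0.997), Mpp1, a membrane scaffold protein (0.996), Josd2, a deubiquitinase (0.995), BB128963 (0.994) and Map2k6, a kinase upstream of p38 (0.994). Each was lower in hSRY-ON without overlap. Slc13a3 went from 8.31 ± 0.07 to 7.67 ± 0.23 and was lowest, at 7.40, on hSRY-ON replicate 1. None of these 5 was called, with limma adjusted p from 0.0548 to 0.112. An r over 0.95 was found for 203 of the 14211 other tested probes (1.43%), and in the deviations from the genotype means for 136 (0.957%). In the deviations from the genotype means, the most alike were Grpel1, Psme1, Trpt1, Ccdc94 and Serinc5, with r from 0.995 to 0.998, and their genotypes overlapped (limma adjusted p 0.258 to 0.939, none called). Among the 119 tested probes of the gene lists described next, r was over 0.95 for 5 over the 6 arrays and for 4 in the deviations. Those over it in both were Cldn5 of brain vessels (0.985 and 0.985), Olig2 of the oligodendrocyte lineage (0.986 and 0.973) and 1 of 2 probes of Dcn of fibroblasts (0.951 and 0.959), named after their values were seen, and none of these 3 was called (limma adjusted p 0.126, 0.151 and 0.239). Their part in the Ccl21 signal was not tested.

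The other genes of the chemokine system were set beside the members from lists of other ligands, receptors and organisers. Of 43 probes for other chemokines, 16 were detected well enough to be tested, and 0 were called by limma (6 at an unadjusted p under 0.05), with a median log2 difference of 0.04 and a range from -0.40 to 0.997, while 2.17% of all 14215 tested probes were called and 20.9% had an unadjusted p under 0.05. This share of 20.9% is the background for each count at an unadjusted p given for the lists. Ccl27, a skin chemokine gene that also lies on chromosome 4, had differences of 0.06 (SE 0.08, adjusted p 0.732) and 0.02 (SE 0.07, adjusted p 0.926) at its 2 probes. Cx3cl1, the neuronal ligand of the microglial receptor CX3CR1, had -0.07 (adjusted p 0.697). Cxcl12, which guides neuronal and vascular precursors, had 0.35, 0.24 and 0.21 at its 3 tested probes (adjusted p 0.173 to 0.402), and Cxcl14 had -0.32 (adjusted p 0.0714) and -0.00051 (adjusted p 0.999). Ccl17, a ligand of CCR4 picked out after its value was seen, had the highest difference of the list, from 5.80 ± 0.42 to 6.80 ± 0.03 (log2 difference 0.997, SE 0.20, adjusted p 0.0528). With limma's prior made both trended and robust, 5 of the 16 were called, 4 higher and 1 lower, and without background correction the counts were equal.

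Among other chemokine receptors, 8 of 30 probes were tested and 0 were called by limma (1 at an unadjusted p under 0.05), with a median of -0.09. That one was Darc (current symbol Ackr1), a scavenging receptor of venules and red cells, with 0.25 (SE 0.08, adjusted p 0.150). Cxcr4, the receptor of CXCL12, had -0.14 (adjusted p 0.562), and Cx3cr1 -0.04 (adjusted p 0.908). The scavenger Ccbp2 (current symbol Ackr2) had 0.0062 (adjusted p 0.981). Ccrl1 (current symbol Ackr4), which removes CCL21 and CCL19 from tissue, was below background at all of its 3 probes on all arrays, as was Cxcr3, a second receptor described for mouse CCL21 on microglia.

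Genes that act with CCL21 in forming lymphoid tissue gave 11 tested probes of 28, with 0 called by limma (5 at an unadjusted p under 0.05) and a median of -0.0093. Lymphotoxins (Lta, Ltb), Tnf, Il7, Nfkb2 and Cxcl13 were not detected on any array. Map3k14, the NF-kB-inducing kinase of the lymphotoxin pathway, had -0.56 (SE 0.15, adjusted p 0.100), the adhesion molecule Vcam1 -0.31 (SE 0.08, adjusted p 0.0928) and Icam1 0.27 (SE 0.09, adjusted p 0.159). The inhibitor of differentiation Id2 had 0.34 (adjusted p 0.106) and 0.20 (adjusted p 0.622) at its 2 probes.

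Neighbouring genes on the chromosome were read to set the Ccl21 copies in their surroundings. Of 26 probes for 18 neighbouring genes, all of which lie on chromosome 4, 25 were tested and 0 were called by limma (3 at an unadjusted p under 0.05), with a median of -0.05 and a range from -0.44 to 0.12. None of these 25 had a difference as low as that of any Ccl21 probe. As the members were picked with this contrast known, nothing is read from that. Vcp, an abundant ATPase, had -0.05 (SE 0.07, adjusted p 0.713), the dynactin subunit Dctn3 0.02 and -0.00069 (adjusted p 0.926 and 0.997) and Ubap2 -0.12 (adjusted p 0.529).

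**Figure D3:**
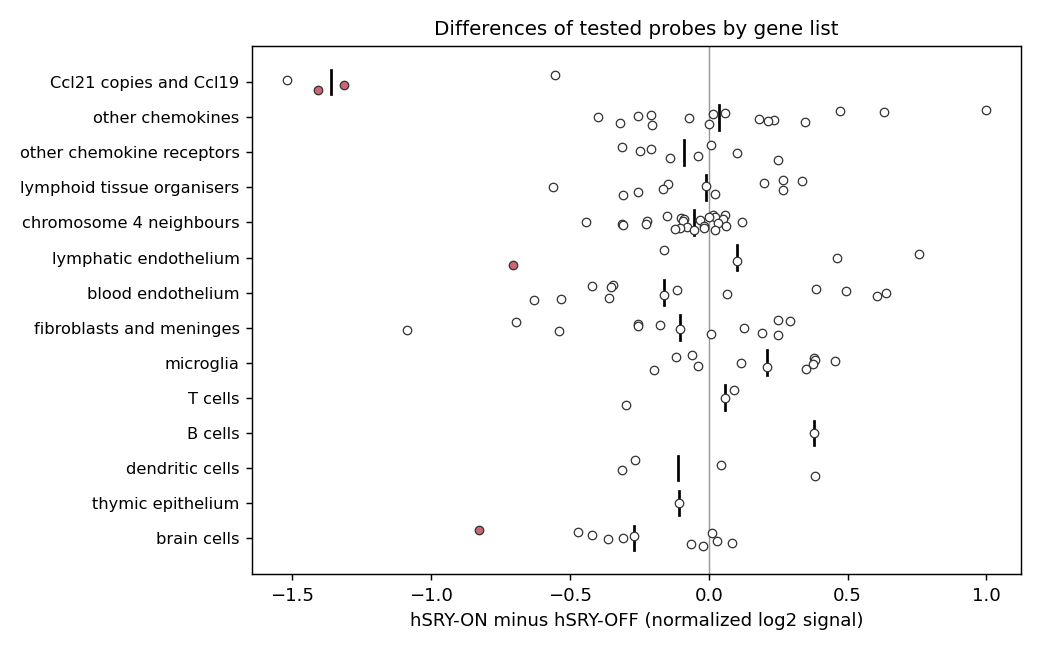
Difference between genotypes (hSRY-ON minus hSRY-OFF, normalized log2 signal) of each tested probe, by gene list; filled points were called at an adjusted p under 0.05 and the black line is the median of the list. The 3 Ccl21 probes lie between -1.52 and -1.31, below every probe of the other 13 lists. The members were picked with this contrast known, so nothing is read from that order.

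Markers of the cells that could make CCL21 or carry CCR7 were read on the same arrays. Among markers of lymphatic endothelium, 5 of 13 probes were tested, of which 1 was called by limma and 3 had an unadjusted p under 0.05 (2.17% and 20.9% of all tested probes). Sox18, a transcription factor of developing lymphatic and blood vessels, fell from 8.02 ± 0.05 to 7.31 ± 0.14, by 0.70 on the log2 scale (SE 0.09, adjusted p 0.0263), and was the only one called. Its hSRY-OFF arrays read between 7.98 and 8.07 and its hSRY-ON arrays 7.21, 7.47 and 7.26, with the lowest value on hSRY-ON replicate 1, and its call was lost when any single array other than hSRY-ON replicate 3 was left out (adjusted p 0.0614 to 0.109). Prox1, the defining factor of lymphatic endothelium that some neurons also express, had 0.46 (adjusted p 0.0698), Nts 0.76 (adjusted p 0.0679) and Reln 0.10 (adjusted p 0.557). The more restricted lymphatic markers Lyve1 and Flt4 were each detected on at most 1 array. The mean level of the 5 tested probes ranged from 8.34 to 8.44 over hSRY-OFF arrays and from 8.43 to 8.53 over hSRY-ON arrays. Lyve1 and Flt4 were not among these probes, so this mean does not show how much lymphatic endothelium the samples held.

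Of 13 tested blood endothelial probes limma called 0 (10 had an unadjusted p under 0.05, where 20.9% of all tested probes did), 8 of the 13 with negative and 5 with positive differences. Cldn5, a tight junction protein of brain vessels, had -0.42 (SE 0.13, adjusted p 0.126) at its 1 probe. Slc2a1, the glucose transporter of brain vessels, had 0.60 (adjusted p 0.107), Slco1c1 -0.36 (adjusted p 0.0801) and Esam -0.12 (adjusted p 0.493). The mean of this list ranged from 8.97 to 9.01 over hSRY-OFF arrays and from 8.91 to 8.97 over hSRY-ON arrays. Its part in the lower Ccl21 signal was not tested.

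Fibroblast and meningeal markers likewise gave 0 calls by limma (7 of 13 tested had an unadjusted p under 0.05, against 20.9% over the array), with 7 negative and 6 positive differences. Lum, a matrix proteoglycan named after its value was seen, had the lowest, from 8.31 ± 0.12 to 7.23 ± 0.52 (-1.09, SE 0.24, adjusted p 0.0682). Its arrays read 8.17, 8.39 and 8.38 in hSRY-OFF and 6.73, 7.19 and 7.76 in hSRY-ON, so that it too was lowest on hSRY-ON replicate 1. Dcn, the proteoglycan decorin, had -0.25 (adjusted p 0.239) and -0.18 (adjusted p 0.665), Pdgfra 0.19 (adjusted p 0.254), Slc6a13 0.25 (adjusted p 0.171) and Igf2 -0.10 (SE 0.08). The list mean ranged from 8.91 to 8.97 over hSRY-OFF arrays and from 8.65 to 8.92 over hSRY-ON arrays, and its part in the Ccl21 signal was not tested.

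Markers of cells that carry CCR7 were mostly below background. Of 11 T cell probes, 8 were detected on no array, among them Cd3d, Cd3g, Cd4 and Cd8a. The 3 tested ones, Thy1 and Lck (both also made by neurons) and Cd3e, had -0.30, 0.06 and 0.09 (adjusted p 0.125, 0.776 and 0.702). The B cell gene Ms4a1 and the dendritic cell genes Itgax, Flt3 and Ccl22 were not detected on any array. The 4 tested dendritic cell probes, for Zbtb46, Cd74 and H2-Ab1, had a median of -0.11 and 0 calls by limma (0 at an unadjusted p under 0.05). The thymic epithelial genes Foxn1 and Krt5 were below background on all arrays, and Krt8 had -0.11 (adjusted p 0.830). The B cell gene Cd79b, detected on 3 arrays, had 0.38 (adjusted p 0.111).

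Microglial markers had 0 of 11 tested probes called by limma (3 at an unadjusted p under 0.05) and a median of 0.21. The complement gene C1qc had 0.45 (SE 0.09, adjusted p 0.0506), C1qb 0.38 (adjusted p 0.0733), P2ry12 0.21 (adjusted p 0.373) and Trem2 -0.20 (adjusted p 0.329). The labelled tissue's markers Stmn2 (neurons), Slc1a3 (astrocytes), Mbp and Olig1 (oligodendrocytes) read 15.02, 14.32, 13.92 and 12.63 in hSRY-OFF at their brightest probe, while the single Snap25 probe was below background. Among the 11 tested brain cell probes 1 was called, Gfap of astrocytes, which fell from 8.32 ± 0.21 to 7.50 ± 0.04, by 0.83 (SE 0.12, adjusted p 0.0308), and this call too was lost without any single array other than hSRY-ON replicate 3. The mean of the brain cell list ranged from 11.05 to 11.16 in hSRY-OFF and from 10.81 to 10.89 in hSRY-ON, and its part in the Ccl21 signal was not tested.

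The size of the difference in the Ccl21 probes varied with the processing. Without background correction the log2 differences were -1.13 for Ccl21a, -0.82 for Ccl21c and -0.90 for LOC100041504, and with median scaling they were -1.55, -1.34 and -1.43. In the fits that left out 1 array, the 3 probes lay between -1.12 and -1.06 without hSRY-ON replicate 1 and between -1.73 and -1.22 without any of the other arrays.

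**Figure D4:**
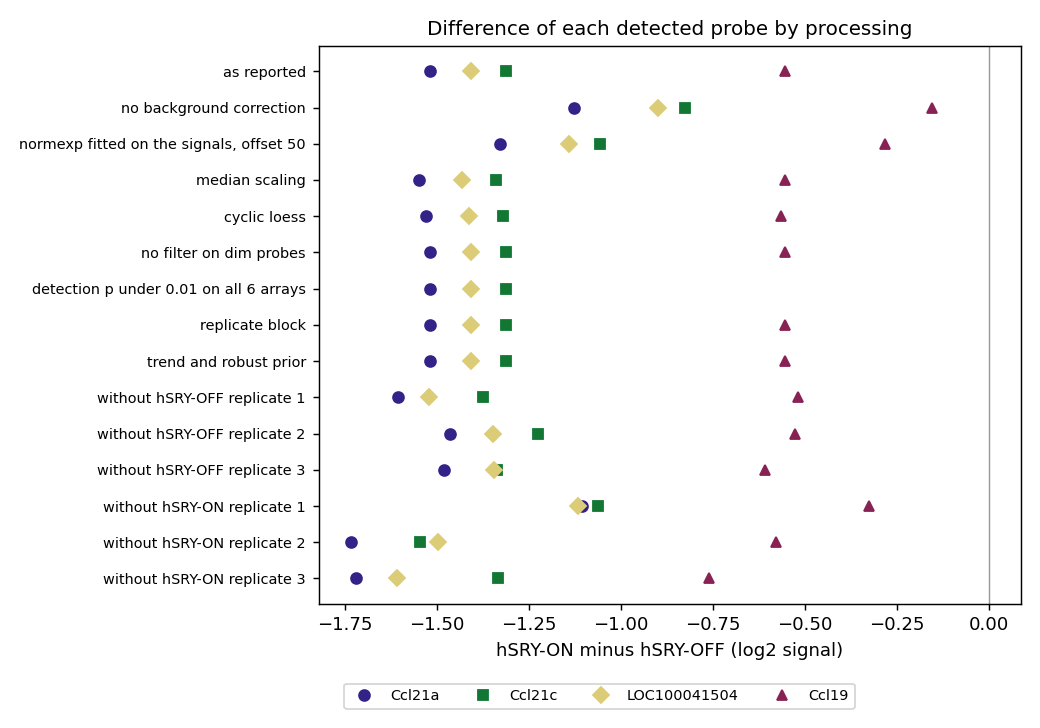
Difference between genotypes (log2 signal, hSRY-ON minus hSRY-OFF) of the 4 detected probes under each way of processing the arrays and with each array left out. All points lie below 0; the smallest are -1.11 for Ccl21a (without hSRY-ON replicate 1) and, without background correction, -0.82 for Ccl21c, -0.90 for LOC100041504 and -0.15 for Ccl19, which has no point under the stricter detection filter.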

How the data were processed

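Expression was measured in 3 hSRY-OFF and 3 hSRY-ON brains, grouped by the labels; nothing states that replicates came from different litters. The authors deposited a mean bead signal intensity (linear scale, not normalized) and a detection p-value for each probe and array, and background correction was not stated. Detection p-value steps, in the deposited table, corresponded to 798 negative controls per array. The study's methods name the package TCC and its processing notes limma; no settings were given in the sources used here.

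Background was taken off by a normexp fit in limma, with the controls inferred through the detection p-values and an offset of 16, and values were put on the log2 scale and quantile normalized (R 4.3.3, limma 3.58.1). The 14215 probes detected (p-value under 0.05) in 3 or more of the 6 samples were fitted with lmFit and eBayes (genotype as the only term, two-sided, Benjamini-Hochberg over all tested probes, call at an adjusted p under 0.05). The number of arrays limits precision. On simulated data for this comparison (15230 probes tested), 140 of 193 tested probes changed by 1 on the log2 scale were recovered (72.5%), all in the right direction, and 14 of the 154 calls (9.09%) were probes that had not been changed. Named genes were all members, all called probes of 13 lists, otherwise up to 4 genes of highest mean signal per list, and the 5 probes most like the Ccl21 profile in each of 2 measures. Other list genes were named for being undetected or nearly so, or after their values were seen, as said where they appear. The members and lists were chosen with earlier results of these data known. Sequences were aligned with Biopython 1.88 and figures drawn with matplotlib 3.10.9. Some results are not reported here.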

Additional observations from a re-analysis of the deposited data

How the results depend on the processing

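The spread of the Ccl21 probes without hSRY-ON replicate 1 and on the bead signal scale was computed after seeing the data. The median log2 difference of the Ccl21 probes, -1.41, became -0.90 without background correction and ranged from -1.61 to -1.11 when 1 array was left out. The 308 calls over all probes became 1317 without background correction, 860 with another background correction that changes both its fit (normexp on the signals) and its offset (50), 123 with no filter on dim probes, 705 with a stricter filter (every array detected at p under 0.01), 1447 with a prior made both trended and robust, and 0 to 417 without 1 array. The cause was not tested, except that the filters change how many probes are tested. The 2 called members became 0 with no filter, and 0 to 1 without 1 array; without background correction, with the other background correction, with median scaling and with the stricter filter all 3 Ccl21 probes were called.

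The other chemokines, with 0 calls, had 5 without background correction, 4 with the other background correction, 3 with the stricter filter, 5 with the trended robust prior and 0 to 1 without 1 array. The other receptors, with 0, had 1 without background correction and 1 with the trended robust prior. Lymphoid organisers, with 0, had 2 without background correction, 1 with the other background correction and 2 with the trended robust prior, all lower, and chromosome 4 neighbours, with 0, had 1 without background correction and 2 with the trended robust prior, all lower. The 9 cell marker lists, with 2 calls among 62 tested probes, had 20 without background correction, 13 with the other background correction, 11 with the stricter filter, 21 with the trended robust prior and 0 to 9 without 1 array. Deviations of same-numbered arrays correlated at 0.0404, 0.0294 and 0.0251, and those of differently numbered arrays at -0.0230 to -0.0054. Each array thus correlated best with its own number, though weakly. These values cannot settle whether the replicate numbers pair the arrays, and the main fit has no such term. With the replicate number as a block, the calls were 0 over all probes, 0 among members and 0 among cell markers. In this balanced design the block cannot change a fitted difference, so the median of the Ccl21 probes is -1.41 by construction. The likeness of the Ccl21 probes, a mean pairwise r of 0.975, stayed between 0.975 and 0.976. Ccl19 and Ccr7 lie near background, which limits what these arrays can show for them.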
